A study of Drosophila melanogaster with 30 samples.

Results

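The 11 reporter elements described here are pieces of Drosophila melanogaster regulatory DNA named after Ddc, ple and e, genes of catecholamine and pigment metabolism. They were taken by name, as every element whose name opens with exactly one of these symbols, from 591 elements listed over 2 rounds of a silencer screen. Round 1 listed 576 elements and held 4 Ddc, 2 ple and 5 e elements. Round 2 listed 188 elements, 173 of them shared with round 1, and held only e_coreAbdominalCRE. The 3 genes were picked with the round 1 low-GFP values of these elements known, so those differences are given below as a description, without a p-value. Called there means only that an element passed the threshold used for all elements, and the calls on these contrasts are no independent test of the elements.

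The 3 enzymes act one after another. ple encodes tyrosine hydroxylase, which turns tyrosine into DOPA and limits the rate of the pathway, and Ddc encodes dopa decarboxylase, which turns DOPA into dopamine. e (ebony) encodes the synthase that joins beta-alanine to dopamine, which gives the pale to tan pigment of hardened cuticle. All 3 are known for roles in the epidermis and in neurons or glia, ple and Ddc are also induced in the epidermis around a wound, and none of them is known as a gene of the embryonic mesoderm. In the RefSeq gene table of Release 6, Ddc (gene 35190, CG10697) lies on chromosome arm 2L, ple (gene 38746, CG10118) on 3L and e (gene 42521, CG3331) on 3R. The positions of the cloned pieces within these loci were not used here.

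Each reporter carried GFP under a strong ubiquitous enhancer beside a candidate silencer, and each embryo had a father drawn at random from the reporter pool and a mother carrying twi:CD2, a surface marker under the control of the mesodermal gene twist. Embryos were collected for 2.25 h and aged for 11 h at 18 °C, and their cells were stained for CD2 and sorted. The round 1 groups were low-GFP cells (CD2-positive mesodermal cells with reduced GFP), CD2+ cells (all CD2-positive cells) and CD2- cells, with 6 libraries each. Round 2 had low-GFP cells, labelled CD2+GFPred, and CD2+ cells, again 6 libraries each, from a pool of its own. All groups shared the reporter and the twi:CD2 parent, and low-GFP cells were a gated part of the CD2+ population. Each group was collected on 6 days, of which days 1 to 3 formed experiment 1 and days 4 to 6 experiment 2. The readout was the number of reads of each insert recovered by PCR from genomic DNA, so a value is the share of an insert among sorted cells and not a level of RNA or GFP.

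The inserts were told apart in the deposited files by name and by a 12-base barcode. The barcodes of the elements are printed to identify the inserts, and in lower case because no stretch is singled out.
ple_995bp_wound_response_element: agcaggcaagaa
ple_WE1: accgtcttagca
Ddc_-0.47: gccttctgcctt
Ddc_ET: gcagctaagacg
Ddc_distal_enhancer: cggtcctatgtc
Ddc_silencing_element: tcctaggccgtg
e_coreAbdominalCRE: actgggcctgct
e_A.1: gtctacgctggt
e_A.2: atcttacccagc
e_A.3: tctatagcaggc
e_A.5: cagcgtagcagg
Each of these differed from the nearest other barcode in its round at 3 or 4 bases. The barcode of e_coreAbdominalCRE was the same in both rounds.

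Round 1 libraries held 3399506 to 5934098 counts and round 2 libraries 2928510 to 5488936. A floor of 3 counts was worth 0.399 to 1.71 CPM (counts of an insert per mega-count of its library) in round 1 and 0.471 to 1.13 in round 2, and floors cover counting error only. CPM below are scaled by TMM factors, and n is 6 libraries per group. All 11 elements passed the filter on low counts in round 1. Together they took a median of 3.46% of the counts in low-GFP libraries (2.72% to 4.78%), 4.68% in CD2+ (3.46% to 6.06%) and 4.61% in CD2- (4.13% to 5.37%).

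Against both control groups, 3 of the 11 elements were called higher in round 1 low-GFP cells (adjusted p under 0.05), 1 for each gene, and 2 were called lower, 1 for ple and 1 for e. The remaining 6 did not pass. Ddc_-0.47, ple_995bp_wound_response_element and e_coreAbdominalCRE were the higher elements, and ple_WE1 and e_A.2 the lower ones. Over all 358 elements tested, 15.9% were called higher and 10.1% lower, 26% in all, and since the genes were picked on this contrast nothing is read from the comparison of these shares. The median log2 change was −1.18 over the 11 elements and −0.61 over all elements tested. The 8 tested E. coli control inserts, pieces of bacterial DNA, had a median of −2.04 with a range from −6.48 to 2.43. The falls of ple_WE1 and e_A.2 lay within the range of the controls and close to their median. The rise of e_coreAbdominalCRE (1.86) lay within that range only through Ecoli_control22, as the other tested controls ran from −6.48 to −1.05. The rises of Ddc_-0.47 and ple_995bp_wound_response_element lay above the whole range. Its lower end was Ecoli_control15, with an SE of 3.09 and a median of 1.5 counts in low-GFP libraries. Of the 8 controls, Ecoli_control22 was itself called higher (2.43) and 0 were called lower. The same 5 elements were called in the same directions against CD2+ cells alone, where 12.3% of all elements were higher and 8.38% lower, and against CD2- cells alone, where the shares were 13.4% and 7.82%. Against CD2- alone the calls of e_A.2 and e_coreAbdominalCRE depended on single libraries, as given with each. Both comparisons use the same low-GFP libraries.

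**Figure D1:**
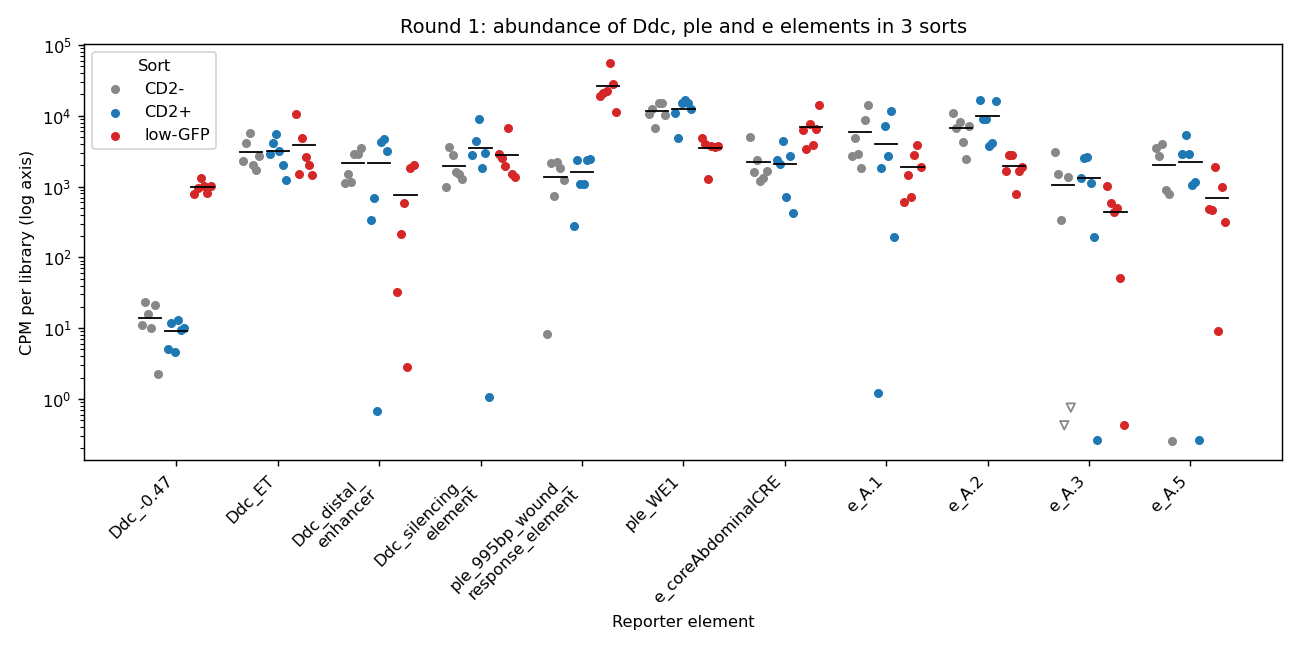
CPM (log axis) of each of the 11 elements in every round 1 library, by sort, with days 1 to 6 from left to right in each sort; black bars are means and open triangles mark libraries with 0 counts, drawn at the floor. Low-GFP values of Ddc_-0.47 (780 to 1318) and of ple_995bp_wound_response_element (11194 to 55722) lie above all their controls.

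The 2 ple elements went opposite ways. The ple_995bp_wound_response_element, named for the response of this gene to wounding, ranged in low-GFP cells from 11194 through a median of 21389 to 55722 CPM. In CD2+ cells it ranged from 274 through 1729 to 2465 CPM, and in CD2- cells from 8.14 through 1532 to 2217 CPM. Every low-GFP library was above every control library, as was also so for Ddc_-0.47. Over all elements tested this held for 9.5%, and the reverse, which held for 0 of the 11, for 1.96%. The lowest CD2+ and CD2- values both came from day 1. The means were 26132 ± 15476 CPM in low-GFP cells, 1613 ± 919.9 in CD2+ and 1364 ± 873 in CD2- (SD, n = 6), ratios of 16.2 and 19.2. The fitted log2 change against both controls was 4.16 (SE 0.63). By mean share of the counts it ranked 12 of 576 elements in low-GFP cells, against 148 in CD2+ and 162 in CD2-.

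ple_WE1 was among the most abundant inserts of the control sorts, ranking 9 in CD2+ and 7 in CD2- by mean share, and ranked 73 in low-GFP cells. Its low-GFP values ran from 1293 through 3692 to 4862 CPM. In CD2+ cells they ran from 4785 through 13793 to 16850 CPM, and in CD2- cells from 6787 through 11377 to 15135 CPM. All low-GFP libraries lay below all CD2- libraries, while the highest low-GFP value just exceeded the lowest CD2+ value, that of day 2. The means were 3521 ± 1185 CPM in low-GFP, 12553 ± 4398 in CD2+ and 11656 ± 3189.9 in CD2- cells (SD, n = 6), with a fitted log2 change of −1.76 (SE 0.35). The CD2+ mean was 3.57 times and the CD2- mean 3.31 times the low-GFP mean. When libraries were scaled to the E. coli inserts, ple_WE1 was no longer called against either control alone.

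Set against each other day by day, the log2 ratio of low-GFP over CD2+ was higher for ple_995bp_wound_response_element than for ple_WE1 on 6 of 6 days. The daily difference averaged 6.0 (SD 2.0) and ran from 3.40 to 7.90. ple_995bp_wound_response_element had a ratio above 0 on every day and ple_WE1 below 0 on every day, against CD2+ and against CD2- alike. The labels do not state the function of ple_WE1, so the pair does not set wound elements against other elements. Across the 18 libraries their log2 CPM had a Pearson r of −0.62, a description over libraries that share days and a total.

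**Figure D2:**
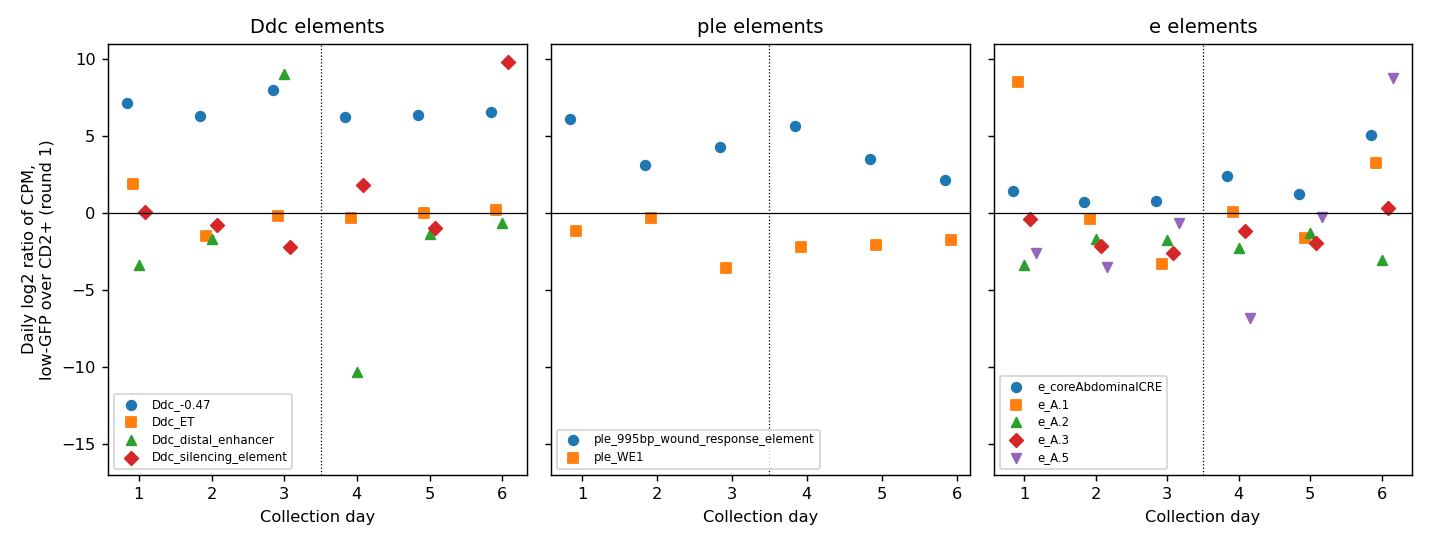
Log2 ratio of low-GFP over CD2+ CPM (prior count 2) on each of the 6 collection days of round 1, with 1 panel per gene and 1 marker shape per element. The dotted line separates experiment 1 (days 1 to 3) from experiment 2. ple_995bp_wound_response_element, Ddc_-0.47 and e_coreAbdominalCRE stay above 0 on 6 of 6 days, and ple_WE1 and e_A.2 below 0 on 6 of 6.

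Of the 4 Ddc elements, Ddc_-0.47 was alone in being called. It was scarce in the control sorts, with 4.66 through 9.74 to 13.1 CPM in CD2+ cells (21 to 80 counts a library) and 2.26 through 13.4 to 23.4 CPM in CD2- cells (9 to 119 counts). In low-GFP cells it ranged from 780 through 981 to 1318 CPM. All control libraries lay below all low-GFP libraries, and the 6 low-GFP values lay close together. The means were 982 ± 191 CPM in low-GFP, 9.01 ± 3.48 in CD2+ and 14.0 ± 7.86 in CD2- cells (SD, n = 6), ratios of 109 and 70.2. The fitted log2 change of 6.45 (SE 0.78) was the highest of the 11. In rank by mean share it moved from 357 in CD2+ and 359 in CD2- to 152 in low-GFP cells, out of 404, 404 and 401 elements with any count in each sort.

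Ddc_ET was abundant in every sort. Its values ran from 1446 through 2306 to 10640.5 CPM in low-GFP, from 1231 through 3035 to 5531 in CD2+ and from 1732 through 2513 to 5706 in CD2- cells. The 3 groups overlapped, the highest low-GFP value being that of day 1, and the fitted log2 change was 0.19 (SE 0.41). Ddc_silencing_element, named for silencing, ran from 1376 through 2227 to 6672 CPM in low-GFP cells. In CD2+ cells it ran from 1.05 through 2847 to 9082 CPM and in CD2- cells from 996 through 1548 to 3562 CPM. Its groups overlapped and it was not called, with a log2 change of 0.30 (SE 0.80). The sign of both elements turned with the setting over 33 alternatives, from −0.54 to 0.42 for Ddc_ET and from −0.66 to 0.78 for Ddc_silencing_element.

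Values of Ddc_distal_enhancer ran from 2.86 through 395 to 1982 CPM in low-GFP cells, from 0.666 through 1913 to 4685 in CD2+ cells and from 1128 through 2184 to 3485 in CD2- cells. The lowest low-GFP value rested on 5 counts on day 4 and the lowest CD2+ value on 3 counts on day 3, and the groups overlapped. The fitted log2 change was −1.48 (SE 1.03), and it did not pass the test. The daily log2 ratio of Ddc_-0.47 exceeded that of Ddc_ET on 6 of 6 days, by a mean of 6.75 (SD 1.08). It exceeded that of Ddc_distal_enhancer and of Ddc_silencing_element on 5 of 6 days each, and the exceptions were the days on which the CD2+ library held 3 counts of the former and 4 of the latter.

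Of the 5 e elements, 1 was called higher, 1 was called lower and 3 were not called. e_coreAbdominalCRE, named as the core of a cis-regulatory element for the adult abdomen, ran from 3411 through 6485 to 14056.5 CPM in low-GFP cells. In CD2+ cells it ran from 423 through 2210.1 to 4358 CPM and in CD2- cells from 1189 through 1651 to 5066 CPM. The groups overlapped, and on each single day the low-GFP library was above both of its controls. The means were 6979 ± 3841 CPM in low-GFP, 2107 ± 1434 in CD2+ and 2205 ± 1459 in CD2- cells (SD, n = 6), ratios of 3.31 and 3.17, with a fitted log2 change of 1.86 (SE 0.48). This was the least stable of the 5 calls. With libraries scaled to total counts the value against both controls was 1.41 and was not called, and against CD2+ alone leaving out day 4, 5 or 6 ended the call, with a value of 1.31 without day 6. Against CD2- alone the call was lost in 17 of 33 alternatives, among them leaving out day 2, 3, 4, 5 or 6, DESeq2 size factors and read 2 counts, with 1.32 without day 6.

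e_A.2 ran from 785 through 1787 to 2792 CPM in low-GFP cells, from 3733 through 9096 to 16803 in CD2+ and from 2415 through 7024 to 10969.7 in CD2- cells. Its low-GFP libraries all lay below the CD2+ libraries and overlapped the CD2- range at its lower end. The means were 1927 ± 764 CPM in low-GFP, 9815 ± 5630.0 in CD2+ and 6653 ± 3007 in CD2- cells (SD, n = 6), and the CD2+ mean was 5.09 times and the CD2- mean 3.45 times the low-GFP mean. The fitted log2 change was −2.07 (SE 0.42). Against CD2- alone it was −1.77, and the call was lost without day 3 (−1.81) or without the CD2- library of day 6 (−1.49).

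The other 3 e elements had negative fitted changes with wide errors: −1.47 (SE 0.93) for e_A.1, −1.38 (SE 1.57) for e_A.3 and −1.18 (SE 1.18) for e_A.5. Medians of e_A.1 were 1684 CPM in low-GFP, 2266 in CD2+ and 3843 in CD2- cells. Those of e_A.3 were 469.8, 1229 and 851 CPM, and those of e_A.5 were 471, 2011 and 1821 CPM. Low-GFP and control values overlapped for all 3. Day by day, e_coreAbdominalCRE had a higher low-GFP over CD2+ log2 ratio than e_A.2 on 6 of 6 days, by a mean of 4.18 (SD 2.21), and than e_A.3 on 6 of 6 days, by 3.26 (SD 0.96). The e_A.3 ratio of day 6 rested on 2 low-GFP counts and 1 CD2+ count, and without day 6 the mean was 2.97. e_coreAbdominalCRE was higher than e_A.1 and than e_A.5 on 5 of 6 days each, with mean differences of 0.85 (SD 4.03) and 2.77 (SD 4.26). The exceptions were day 1, when the CD2+ library held 5 counts of e_A.1, and day 6, when it held 1 count of e_A.5. The mean for e_A.1 depended on single days, with 2.44 without day 1, 0.20 without day 3, 0.45 without day 5 and 0.56 without day 4. The mean for e_A.5 was 1.49 without day 4 and 4.07 without day 6.

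**Figure D3:**
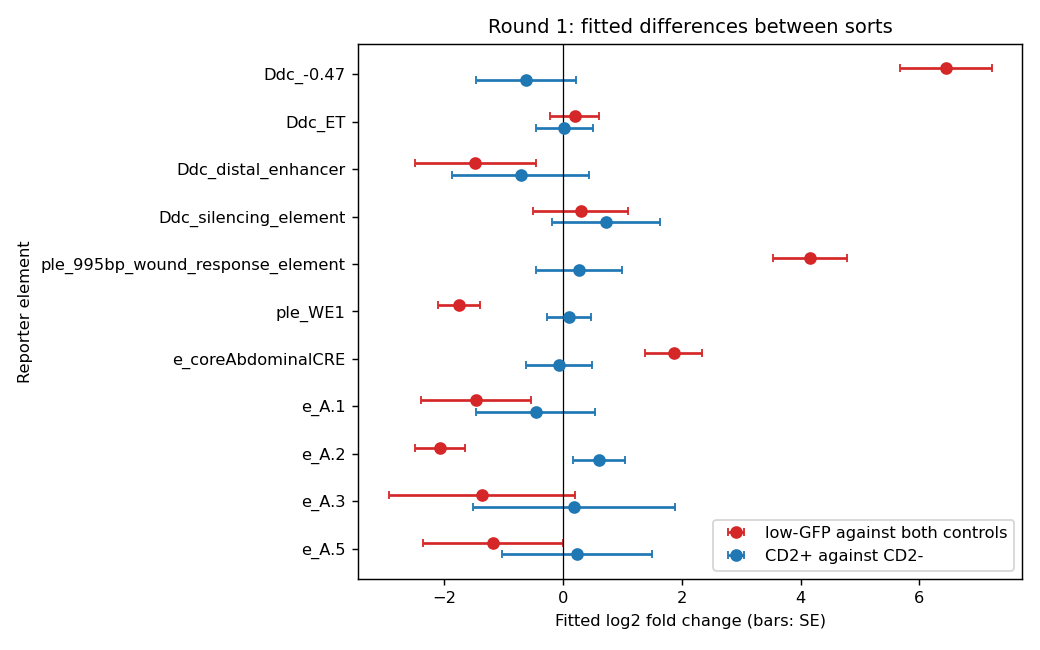
Fitted log2 change of each of the 11 elements in round 1, low-GFP against both controls and CD2+ against CD2-, with bars of 1 standard error. Values for low-GFP cells spread from −2.07 to 6.45, and those between the control sorts from −0.72 to 0.73.

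Several of the wide errors came with single libraries in which an otherwise abundant element was almost missing. Of the 11 elements, 10 had a median above 1000 counts in round 1, and 5 of these fell under 10 counts in at least 1 library, in 10 of 180 values (5.56%). Over all elements with such a median the share was 317 of 4338 values (7.31%), in 122 of 241 elements (50.6%). e_A.1 had 5 counts in the CD2+ library of day 1, and Ddc_silencing_element had 4 in the CD2+ library of day 6. e_A.5 had 1 count in each control library of day 6, while e_A.3 had 0, 1 and 2 counts in the CD2-, CD2+ and low-GFP libraries of that day. e_A.3 also had 0 counts in the CD2- library of day 4, where the floor was 0.425 CPM, and the floor on day 6 was 0.755 CPM. In round 1 no library under 10 counts was seen for the ple elements, Ddc_ET, e_A.2 or e_coreAbdominalCRE. ple_995bp_wound_response_element came near it, with 34 counts in the CD2- library of day 1 against a CD2- median of 7700.5. Its log2 ratio of low-GFP over CD2- on that day was 11.1.

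CD2+ cells were also tested against CD2- cells, without the GFP gate, a contrast the choice of genes did not use. Each embryo had its reporter from its father, so its mesodermal and other cells hold the same insert. The contrast therefore compares recovery of inserts between the control sorts and cannot show what an element does in mesoderm. No element was called: 0 of 11 passed by edgeR's quasi-likelihood test, each with an adjusted p of 0.999, at an unadjusted p under 0.05 there were 0 as well, and the DESeq2 alternative also gave 0 calls. The log2 difference ran from −0.72 for Ddc_distal_enhancer to 0.73 for Ddc_silencing_element. Over all 358 elements tested, 0% were called, and 6 had an unadjusted p under 0.05.

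The direction of the 5 called elements was the same in both experiments. Both experiments are parts of the libraries on which the genes were picked and the elements called. The shared direction is therefore a description and no replication. Fitted on experiment 1 and then on experiment 2 alone, the log2 change against both controls was 6.27 and 6.61 for Ddc_-0.47. It was 3.97 and 4.16 for ple_995bp_wound_response_element, −1.94 and −1.79 for ple_WE1, and −2.37 and −2.02 for e_A.2. In these fits ple_WE1 and e_coreAbdominalCRE were called in experiment 2 only, and e_A.2 in experiment 1 only. e_coreAbdominalCRE stood apart with 0.68 in experiment 1 and 2.86 in experiment 2. Its difference between the experiments was 1.64 (SE 0.96) on the log2 scale, with an unadjusted p of 0.106 and an adjusted p of 1.00 by edgeR's quasi-likelihood test. None of the 11 elements was called as differing between experiments in that test. Among the 358 elements 0% were called, with 12 at an unadjusted p under 0.05. The SE of the difference ran from 0.69 for ple_WE1 to 3.11 for e_A.3, so sizeable differences could be missed. In the authors' deposited table, which gives a fold for each experiment, e_coreAbdominalCRE had 1.54 and 6.43. The authors' deposited table gave 84.7 and 94.0 for Ddc_-0.47, 18.4 and 20.2 for ple_995bp_wound_response_element, 0.327 and 0.316 for ple_WE1, and 0.241 and 0.239 for e_A.2. There Ddc_-0.47 and ple_995bp_wound_response_element passed 0.05 in both experiments and e_coreAbdominalCRE in experiment 2 only. Neither ple_WE1 nor e_A.2 passed in either experiment. The authors' calls rest on the same libraries and contrast, so they are no independent test either.

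e_coreAbdominalCRE was the element carried into round 2, a pool and a set of libraries apart from those of round 1. In low-GFP cells it ran from 0.729 through 1159 to 8694 CPM, and in CD2+ cells from 44.5 through 601 to 1356 CPM. The low-GFP libraries of days 2 and 4 held 2 and 3 counts, at or under the floor, and the highest value was that of day 6. The groups overlapped, and low-GFP exceeded CD2+ on 4 of 6 days. The means were 2667 ± 3497 and 682 ± 456 CPM (SD, n = 6), a ratio of 3.91. The daily log2 ratio of low-GFP over CD2+ averaged −1.16 (SD 4.68), with a median of 0.91 and a range from −8.94 to 2.68. Days 2 and 4 were the days below 0, and this average and the ratio of means pointed opposite ways.

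The round 2 log2 change of 1.49 (SE 1.54) was not called by edgeR's quasi-likelihood test (adjusted p = 0.563). Its 95% interval by a normal approximation ran from −1.53 to 4.50 and held both 0 and the round 1 value. That interval is narrower than the test itself would give. Of the 155 elements tested in round 2, 14.2% were called, 9.03% higher and 5.16% lower. Low-GFP libraries lay all above CD2+ for 6.45% of them and all below for 3.23%. With collection day as a block the value was 0.05 (adjusted p = 0.996), and without the low-GFP library of day 6 it was 0.99. Within experiment 1 it was 0.49 and within experiment 2 it was 2.55, a difference of 2.02 (SE 2.96, adjusted p = 1.00 by edgeR). The authors' deposited table gave folds of 1.29 (adjusted p = 0.839) and 6.04 (adjusted p = 0.0103) for the 2 experiments of round 2, so the element passed 0.05 in the authors' deposited table in experiment 2 only.

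**Figure D4:**
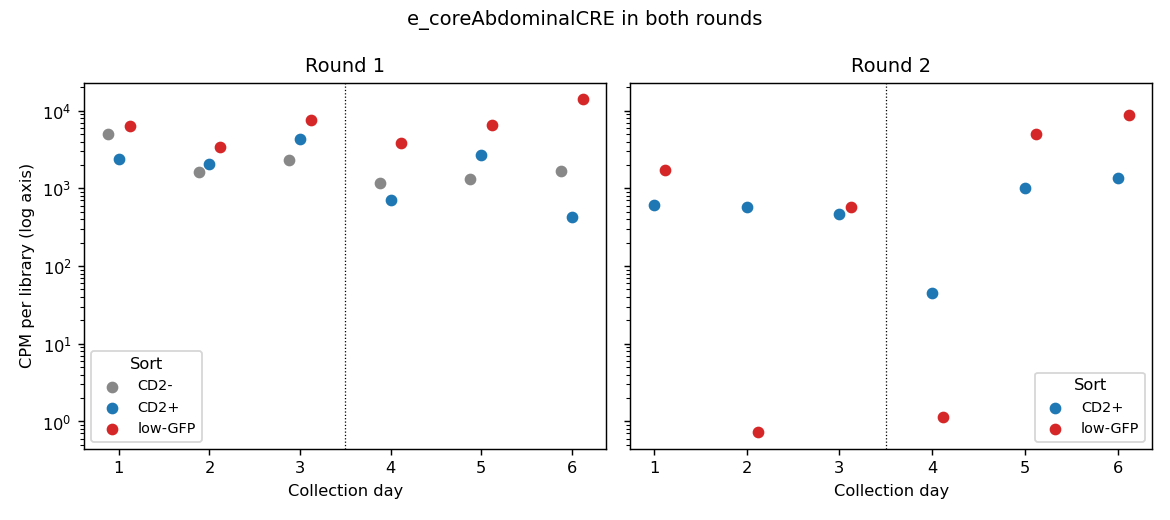
CPM (log axis) of e_coreAbdominalCRE on each collection day, round 1 on the left with 3 sorts and round 2 on the right with 2. Round 1 low-GFP values lie above both controls on 6 of 6 days, and round 2 low-GFP values above CD2+ on 4 of 6, with days 2 and 4 near 1 CPM.

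Other elements of the pathway were few. From a list of genes of catecholamine, melanin and sclerotin synthesis and pigment control, the pools held y_BE1-2, y_BE3 and y_wing of yellow, a gene needed for black melanin, and bab1_dimorphic_element of bab1, a repressor of abdominal pigment. In round 1, 3 of the 4 had 0 counts in all 18 libraries and y_BE3 had 2 counts in all, so none was tested. In round 2 all 4 were tested and 0 were called by edgeR's quasi-likelihood test, with 0 at an unadjusted p under 0.05. The values ran from −0.48 (SE 0.41, adjusted p = 0.469) for bab1_dimorphic_element to 1.10 (SE 0.70, adjusted p = 0.326) for y_BE1-2. Their median was −0.27, against −0.20 over all elements.

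From a list of wound and cuticle genes, the pools held 5 elements of vvl, which encodes a POU factor of trachea and epidermis. Of these, 3 were tested in round 1, where vvl_484-5prime was called higher in low-GFP cells with a log2 change of 4.66 (SE 1.03). Its means were 22853 ± 23299 CPM in low-GFP, 674 ± 697 in CD2+ and 924 ± 685 in CD2- cells (SD, n = 6). Some of its control libraries held few counts: 2 in CD2+ on day 3, 15 in CD2+ on day 6 and 5 in CD2- on day 1. vvl_587dfr at −1.54 and vvl_vvl0.9 at −1.53 were not called. In round 1 vvl_vvl1+2 had 0 counts and vvl_vvlds1.0 had 643 over all libraries, and neither was tested.

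For the element of each gene with the highest mean CPM over the 18 round 1 libraries, the inserts of other genes with the most similar log2 CPM over the same libraries were named as a description. For ple this mean was set by the low-GFP libraries, where ple_995bp_wound_response_element was high, while ple_WE1 was the more abundant element in both control sorts. For ple_995bp_wound_response_element these were hkb_0.6kbRIRV (Pearson r = 0.92), DHS+K27me3_one-hit_1265 (r = 0.90) and ClassI_ins_210 (r = 0.87). For e_A.2 they were BiTS-ChIP_K4me1+K27me3+K27ac_246 (r = 0.91), E_0_12h_dCtBP7667.region_3509 (r = 0.88) and CAD2_Ket-2 (r = 0.88). For Ddc_ET they were DHS+K27me3_one-hit_372 (r = 0.83), E0_12_GROAviva_ChIP_chip.region_376 (r = 0.74) and CG13196_1kb_5' (r = 0.70). Between elements of a gene, r was for instance 0.01 between Ddc_-0.47 and Ddc_ET, and 0.65 between e_A.3 and e_A.5.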

How the data were processed

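Genomic DNA inserts from sorted embryonic cells were sequenced in 30 libraries. The authors deposited counts of mapped reads per element, separately for each read of a pair, and tables of normalized means per experiment (a signal, not raw counts), their ratio or fold, its log2 and p-values, per the file headers. The submitters' processing notes name DESeq; the aligner is not given in the sources used here. The members, lists and tests were chosen with earlier results of these data known.

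Read 1 counts were tested with edgeR 4.0.16 (R 4.3.3; quasi-likelihood, TMM, filterByExpr with a minimum count of 10), with sort and experiment as terms, each round apart. P-values were adjusted by Benjamini-Hochberg over all elements tested, and called means under 0.05. The SE is the log2 change over the square root of F, so it restates the test. Daily ratios used a prior count of 2. DESeq2 1.42.0 was an alternative.

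Replicates are collection days, given by the labels, which date the sorts. Sorts of the same day deviated together: 17 of 18 correlations of deviations exceeded 0.1 in round 1 (lowest 0.0954, median 0.223) and 6 of 6 in round 2 (median 0.476). The labels do not say whether cages were independent between days, so p-values measure the spread between these libraries. PCR reads had no molecular identifiers. Named elements were all Ddc, ple and e elements, those of the 2 gene lists, and the 3 most similar inserts per gene. Cloned insert sequences and promoters were not used here, so no motif search was made.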

Additional observations from a re-analysis of the deposited data

Results flagged for a closer look

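Among 35 sets of 6 libraries of an element in a sort, 4 held a library whose gap to the nearest other exceeded Dixon's critical value of 0.625, and chance gives about 1 in 20. Ddc_ET stood at 10640.5 CPM in the round 1 low-GFP library of day 1, against 1446 to 4818 CPM in the other 5. Ddc_silencing_element stood at 6672 CPM in the round 1 low-GFP library of day 4, against 1376 to 2875. e_coreAbdominalCRE stood at 5066 CPM in the round 1 CD2- library of day 1, against 1189 to 2351. ple_WE1 stood at 1293 CPM in the round 1 low-GFP library of day 3, below the others at 3640 to 4862.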

How the results depend on the processing

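No value changed direction among the called elements. For the counts of called elements, 220 alternative values were either within 1.5 times of the reported one or 0 where it was 0, and 7 moved further. The 220 thus include comparisons without any call, where no ratio exists, and do not measure the stability of the calls. Against both controls, experiment 1 alone called 3 (2 higher, 1 lower). Against CD2+, experiment 1 alone and experiment 2 alone called 1 each, and against CD2- they called 0 each. With 3 libraries a group, each of these fits has fewer samples. Leaving out a day or a library gave 5 called against both controls, 4 to 5 against CD2+ and 3 to 5 against CD2-, the lowest without day 3 or without the CD2- library of day 6. Collection day as a replicate block gave 5, 5 and 5 called in these comparisons, and 0 in the others. Over 33 alternatives the log2 change against both controls ran from 5.81 to 6.62 for Ddc_-0.47, 3.32 to 4.62 for ple_995bp_wound_response_element, −2.46 to −1.48 for ple_WE1, −2.55 to −1.84 for e_A.2 and 1.32 to 2.17 for e_coreAbdominalCRE, single experiments apart. e_coreAbdominalCRE lost its call against CD2- in 17 of 33 alternatives and against CD2+ in 9, and e_A.2 lost it against CD2- in 2; the cause was not tested. Scaling to total counts moved the median of all elements by −0.63 and the split of all calls from 57 higher and 36 lower to 47 and 56, and scaling to the E. coli inserts moved it by 0.14 and gave 58 and 27. In round 2 the shifts were −0.51 and 0.61, with splits of 8 and 17, and 23 and 2, against 14 and 8. The planned test between elements of a gene in round 2 was not run, since only 1 was listed there. Depth limits values under 3 counts.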
